A study of Mus musculus with 4 samples.

Results

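The Ms4a genes encode a family of small membrane proteins, each with several membrane-spanning segments, and 10 of them were followed here by name (Ms4a1, Ms4a2, Ms4a4a, Ms4a4b, Ms4a4c, Ms4a6b, Ms4a6c, Ms4a6d, Ms4a7 and Ms4a8a) out of the 19491 genes listed in any library. They were chosen by name, with earlier results of these data known, and other family members such as Ms4a3 are given only in brief. Hematopoietic CD45+ cells were sorted by FACS from the dura mater or the brain of wild-type 8-week-old C57BL/6J mice, and their RNA was sequenced on the 10× Chromium platform with 3′ v3 chemistry, which counts each captured molecule once by its unique molecular identifier (UMI). The mice had a sham operation (hereafter S3) or a photothrombotic injury (PTI; hereafter D3), which damages the vessels of the dura mater, the pia mater and the brain together, and were taken on day 3. The control libraries carry the label CT and were taken as S3. There is 1 library for each of brain S3, brain D3, dura mater S3 and dura mater D3, and the number of mice in each was not given in the sources used here, so the variation from mouse to mouse is unknown and no test was made.

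After filtering, 14103 cells remained, between 2607 in dura mater D3 and 4439 in brain D3, with 37522305 to 72439909 UMIs a library. The median UMIs per cell were 8251 in brain S3 and 9310 in dura mater S3 against 14271 and 14156 in the D3 libraries, so the D3 libraries were the deeper ones. Each cell took a class from marker genes, none of which is an Ms4a gene, and 12912 cells had one. The class names end in "-like" because they rest on RNA markers alone. Of 12385 cells that also fell in a named cluster, 88.2% had the same name there. Between 11 and 24 barcodes of each library also occurred in another library. A level below is the UMIs of a gene for each 1000000 UMIs summed over the cells of a class in a library (CPM), with its 95% exact Poisson interval in parentheses, and these intervals cover counting error only. Because each molecule gives 1 tag from its 3′ end, levels of different genes were compared without scaling by length.

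Members of the family are thought to act within the plasma membrane beside receptors and signalling proteins. MS4A1 is CD20, the surface protein of mature B cells that therapeutic antibodies bind, and MS4A2 is the β chain of the high-affinity IgE receptor FcεRI, which amplifies its signal in mast cells and basophils. Most of the other members are less well understood and are known mainly from T cells, monocytes and macrophages, where human relatives such as MS4A4A and MS4A6A have drawn interest because of their genetic link to Alzheimer's disease.

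All 10 members lie in 1 cluster on chromosome 19, between bases 11067471 and 11623719 of GRCm38 (GENCODE vM21), a span of 556 kb that belongs to a group of 19 annotated family genes. They are protein-coding genes with 3 to 7 exons in their longest transcript, 5 of them on each strand. From the start of the cluster they run as Ms4a8a, Ms4a1 and Ms4a7 on the minus strand, Ms4a4a, Ms4a4c, Ms4a4b, Ms4a6c and Ms4a6b on the plus strand, then Ms4a6d and Ms4a2 on the minus strand. Ms4a4b, at 11443553 to 11467055, ends only 2.31 kb before Ms4a6c, at 11469366 to 11482192. Ms4a4c lies at 11404770 to 11427246, Ms4a7 at 11321039 to 11336146, Ms4a6d at 11586604 to 11604849 and Ms4a1 at 11249675 to 11266241. Some of these genes are close in sequence, and reads from shared stretches may not be told apart in the counting. Among 60-base windows in the last 400 bases of the transcripts, where 3′ reads fall, another family gene shared 61 of 1449 windows of Ms4a4b, 94 of 984 of Ms4a4c, 22 of 1366 of Ms4a6b and 37 of 682 of Ms4a6c. The other 6 members shared 0 windows. Outside these windows, Ms4a2 shared an exact stretch of 112 bases with Ms4a4b, and Ms4a6d shared 81 bases with Ms4a6b.

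Promoter sequences from RefSeq (GRCm38.p6) were matched for 8 of the 10 members, with 2 entries for Ms4a7 and so 9 entries in all. Ms4a1 and Ms4a6d were the members not matched. The start of an entry is that of RefSeq and can differ from the GENCODE gene start. The windows of Ms4a4c, of Ms4a6b and of the Ms4a7 entry not shown lie inside the GENCODE genes. For Ms4a4c the GENCODE start is 11404770. The 250 bases before the start are shown for 5 members whose levels carry the results below: the mast cell gene Ms4a2, the close relatives Ms4a4b and Ms4a4c, which led in different lineages, and the myeloid genes Ms4a6c and Ms4a7. Capitals mark AGATAA or its reverse complement, a motif of GATA factors, in Ms4a2, and GGAAGT or its reverse complement, the core motif of ETS factors, in the others.
Ms4a2, chr19:11623720-11623969, minus strand: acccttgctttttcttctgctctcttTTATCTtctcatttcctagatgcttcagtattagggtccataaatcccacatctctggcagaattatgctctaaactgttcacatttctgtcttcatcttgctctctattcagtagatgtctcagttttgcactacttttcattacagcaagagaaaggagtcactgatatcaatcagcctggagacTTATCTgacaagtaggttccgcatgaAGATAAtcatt
Ms4a4b, chr19:11443308-11443557, plus strand: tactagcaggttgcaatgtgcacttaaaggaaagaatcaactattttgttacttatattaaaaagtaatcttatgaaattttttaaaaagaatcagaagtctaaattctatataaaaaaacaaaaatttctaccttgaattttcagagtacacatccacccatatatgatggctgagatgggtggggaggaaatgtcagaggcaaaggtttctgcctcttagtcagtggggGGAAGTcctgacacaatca
Ms4a4c, chr19:11407411-11407660, plus strand: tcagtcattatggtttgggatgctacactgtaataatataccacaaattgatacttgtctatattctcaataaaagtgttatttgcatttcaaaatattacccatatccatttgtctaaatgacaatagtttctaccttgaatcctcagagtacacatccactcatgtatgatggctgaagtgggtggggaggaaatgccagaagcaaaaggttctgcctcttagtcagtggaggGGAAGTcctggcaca
Ms4a6c, chr19:11469118-11469367, plus strand: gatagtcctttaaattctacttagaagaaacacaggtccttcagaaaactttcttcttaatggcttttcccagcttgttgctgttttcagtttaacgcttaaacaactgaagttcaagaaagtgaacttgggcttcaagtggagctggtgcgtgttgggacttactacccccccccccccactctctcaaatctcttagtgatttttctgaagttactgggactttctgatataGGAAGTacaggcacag
Ms4a7, chr19:11336147-11336396, minus strand: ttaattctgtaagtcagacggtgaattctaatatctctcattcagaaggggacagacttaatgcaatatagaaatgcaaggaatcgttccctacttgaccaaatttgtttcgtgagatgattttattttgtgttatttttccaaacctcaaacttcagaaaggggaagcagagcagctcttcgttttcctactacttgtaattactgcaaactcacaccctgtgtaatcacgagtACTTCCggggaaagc

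The ETS core GGAAGT occurred in 5 of the 9 member entries (Ms4a4b, Ms4a4c, Ms4a6b, Ms4a6c and the entry of Ms4a7 shown), beside 19.7% of 32851 promoter entries of the same length. In 4 of the 9 entries it lay within the last 20 bases before the start, beside 2.18% of all entries. Its end was 13 bases from the start in Ms4a4b, 9 in Ms4a4c, 10 in Ms4a6c and, on the opposite strand, 9 in Ms4a7. Within the same 20 bases the GATA motif and the MAF motif TGCTGA each lay in 1 of 9 entries, beside 0.441% and 1.10% of all. No other motif searched lay there in a member entry. Of all pairs of entries, Ms4a4b and Ms4a4c were the closest, with 185 identical bases over 269 aligned columns (68.8%), and the next pair had 50.4%. The ETS matches of Ms4a4b and Ms4a4c are therefore not independent. The GATA motif AGATAA was found in Ms4a2 alone, in 3 copies, and in 9.99% of all entries. An interferon-response motif and the longer PU.1 form GAGGAAGT, which contains the ETS core, were in 0 of 9 member entries, beside 2.98% and 2.44% of all. The AP-1 motif TGANTCA was in Ms4a8a and in the other entry of Ms4a7 (6.75% of all), and the octamer ATGCAAAT was in Ms4a4c (1.60% of all). These matches describe letters in a window and were not tested as binding sites.

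The members fell into lymphoid, mast cell and myeloid patterns across the 18 classes with at least 50 cells in some library. By the mean level over libraries, Ms4a1 was highest in B-like cells (1184 CPM), Ms4a2 in mast cell-like cells (535 CPM) and Ms4a4b in NK/ILC1-like cells (1022 CPM). Ms4a6c (1393 CPM), Ms4a4c (650 CPM) and Ms4a8a (104 CPM) were highest in Ly6C hi monocyte-like cells. Ms4a7 (937 CPM), Ms4a6b (618 CPM) and the scarce Ms4a4a (16.6 CPM) were highest in Lyve1+ macrophages, and Ms4a6d was highest in infiltrating-like macrophages of the injured brain (554 CPM). Ms4a6b and Ms4a6c were spread over many classes, while the UMIs of some members sat in few, as for Ms4a1, with 92.4% of all its UMIs in B-like cells, and Ms4a2, with 76.3% in mast cell-like cells and a further 20.6% in cells that matched more than 1 class.

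**Figure D1:**
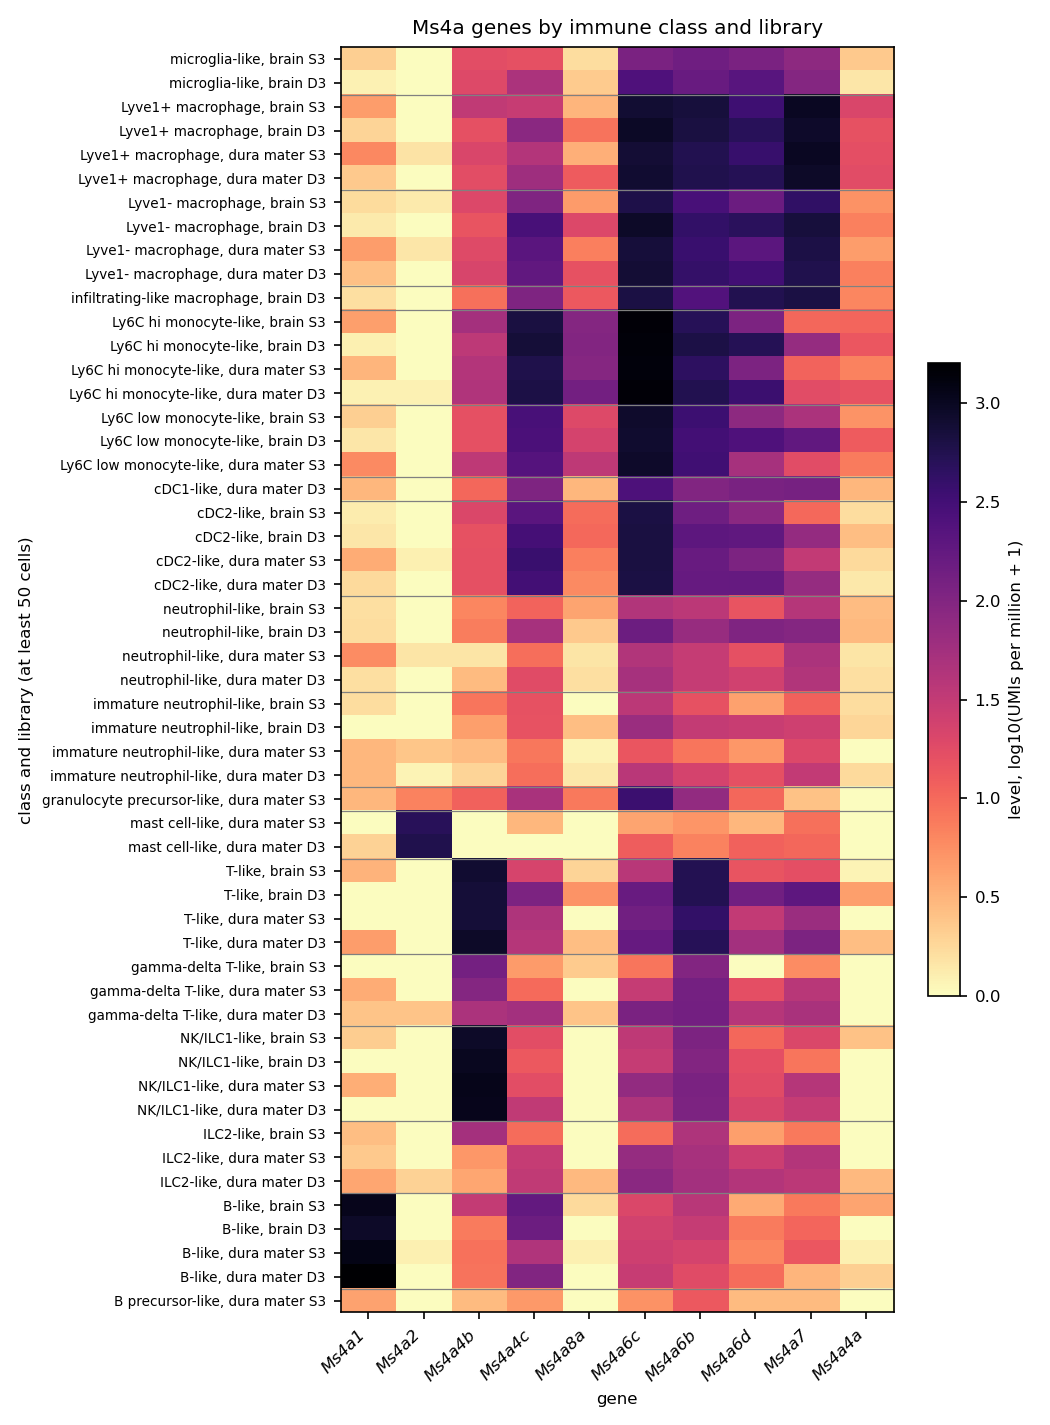
Level of each member (columns) in each class and library with at least 50 cells (rows), as log10 of UMIs per 1000000 plus 1. Ms4a1, Ms4a2 and Ms4a4b are each dark in 1 or 2 lineages, while Ms4a6c and Ms4a6b are dark across macrophages, monocytes and cDC2-like cells.

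Ms4a1, which encodes CD20, had 1088 CPM (1049 to 1129) in B-like cells of brain S3, 903 (800 to 1016) in brain D3, 1186 (1152 to 1220) in dura mater S3 and 1557 (1478 to 1640) in dura mater D3. The lowest and the highest library were thus the 2 injured ones. In brain S3, 93.3% of B-like cells had a Ms4a1 UMI at a median of 4724 UMIs per cell, against 1.28% of T-like cells at a median of 7354. B precursor-like cells, which were frequent in dura mater S3 alone, had 3.14 CPM there (1.02 to 7.34), so the gene was near 0 in them. Within the B-like class of brain S3, cells without a UMI of Ighd, the IgD heavy chain of naive B cells, had 2071 CPM of Ms4a1 (1923 to 2228) against 936 (896 to 976) in cells with one. In the dura mater the intervals of both sets overlapped, with 1213 against 1166 CPM in S3 and 1588 against 1546 in D3. The share of cells with a Ms4a1 UMI was there lower without Ighd, 58.2% against 75.2% in S3 and 73.7% against 91.0% in D3.

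B-like cells also held Ms4a4c, a gene better known from monocytes. Its level was 173 CPM (157 to 189) in brain S3, 147 (107 to 197) in brain D3, 43.2 (36.9 to 50.2) in dura mater S3 and 99.2 (79.9 to 122) in dura mater D3. Between the sham tissues the dura mater was lower by a log2 ratio of -2.0 (-2.26 to -1.74). A member is counted as different here and below where the levels were at least 2-fold apart, the exact interval of the log2 ratio left out 0, and at least 20 UMIs stood behind it. By this count Ms4a4c and Ms4a4b (log2 ratio -1.98, -2.64 to -1.36) were lower in the dura mater, 2 of 7 members with enough UMIs, beside 16.7% of all genes tested in either direction. Ms4a1 itself had a log2 ratio of 0.12 (0.06 to 0.19). Cells with Ighd had the higher Ms4a4c level, 185 CPM against 94.2 without Ighd in brain S3 and 60.5 against 19.0 in dura mater S3.

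Ms4a2, the FcεRI β chain, was measured in mast cell-like cells of the dura mater alone, since the brain libraries held 1 such cell. It had 498 CPM (454 to 544) in dura mater S3 and 573 (528 to 620) in D3, a log2 ratio of 0.20 (0.03 to 0.38). A Ms4a2 UMI was found in 88.4% and 94.6% of these cells, and in 0% of T-like cells in every library. Of the other chains of the receptor, Fcer1a differed between the days and Fcer1g was close in level. Fcer1a, the chain that binds IgE, had 627 CPM (579 to 679) in S3 and 1527 (1453 to 1603) in D3, a log2 ratio of 1.28 (1.15 to 1.42). Fcer1g, the signalling γ chain, had 2222 and 2352 CPM, and the kinases Lyn and Syk had 198 and 168 CPM and 119 and 92.4 CPM. The β chain therefore differed by less than the IgE-binding chain in the cells of this class. At least 2-fold apart in either direction were 3.43% of the 7819 genes tested in it. Cells set aside as mixed, which these levels leave out, held 27.2% of the Ms4a2 UMIs in dura mater S3 and 6.70% in D3.

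Ms4a4b, which restrains activation in T cells, was the most abundant member in NK/ILC1-like and T-like cells. In NK/ILC1-like cells its level was 900 CPM (864 to 937) in brain S3, 1005 (943 to 1071) in brain D3, 1101 (1030 to 1175) in dura mater S3 and 1082 (1006 to 1163) in dura mater D3. In T-like cells it was 808 CPM (784 to 832), 741 (692 to 792), 737 (685 to 791) and 892 (816 to 972) in the same order. The NK/ILC1-like level was the higher one in every library, and the intervals of both classes did not overlap in any of them. Gamma-delta T-like cells stood well below both, with 127 CPM in brain S3, 95.7 in dura mater S3 and 46.4 in dura mater D3.

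Ms4a6b, a relative of Ms4a4b with a described role in T cell activation, separated T-like from NK/ILC1-like cells in the opposite sense. T-like cells had 540 CPM in brain S3, 539 in brain D3, 415 in dura mater S3 and 503 in dura mater D3, while NK/ILC1-like cells had 97.1 to 113 and gamma-delta T-like cells 97.0 to 130.5. In brain S3, 541 of 627 T-like cells had UMIs of both Ms4a4b and Ms4a6b. T-like cells of brain S3 with UMIs of Cd8a or Cd8b1 and no Cd4 (221 cells) had 847 CPM of Ms4a4b and 525 of Ms4a6b. Cells with Cd4 and without Cd8 or Foxp3 (165 cells) had 789 and 645, and the 25 cells with Foxp3, the factor of regulatory T cells, had 591 and 750. In brain S3 the order of the subsets was thus reversed between the genes, but some neighbouring intervals overlapped. For Ms4a4b these were Cd8 (808 to 887) and Cd4 (742 to 838). For Ms4a6b they were Cd4 (603 to 690) and Foxp3 (643 to 869). In brain D3, 51 Cd8 cells had 913 CPM of Ms4a4b and 583 of Ms4a6b, and 33 Cd4 cells had 606 and 664. In dura mater S3 the 28 Cd8 cells had 1129 and 545, and the 24 Cd4 cells had 712 and 494. The Ms4a6b intervals of Cd8 and Cd4 cells overlapped in brain D3 and in dura mater S3.

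**Figure D2:**
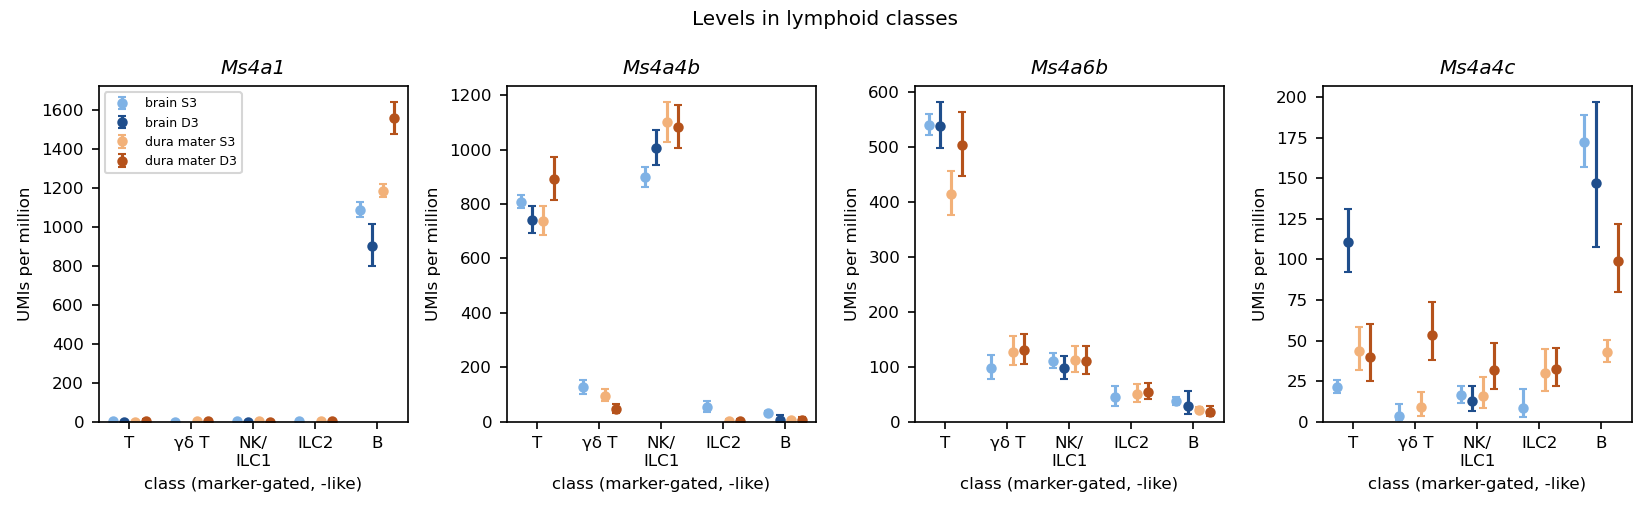
Levels of Ms4a1, Ms4a4b, Ms4a6b and Ms4a4c (UMIs per 1000000, vertical axes) in lymphoid classes (horizontal axes). Each point is 1 library and bars are 95% exact Poisson intervals. Ms4a1 stands in B-like cells, Ms4a4b is highest in NK/ILC1-like cells, Ms4a6b in T-like cells, and Ms4a4c is higher in B-like cells of the sham brain than of the sham dura mater.

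In the myeloid classes, Ms4a6c was the most abundant member by its UMIs, 96397 in all kept cells. Ly6C hi monocyte-like cells, the inflammatory monocytes that leave the blood for injured tissue, had 1420 CPM (1380 to 1462) in brain S3, 1398 (1362 to 1435) in brain D3, 1337 (1302 to 1372) in dura mater S3 and 1415 (1381 to 1450) in dura mater D3. Dura mater S3 was the lowest, with an interval that still overlapped that of brain D3, and the intervals of the other libraries overlapped each other. Ly6C low monocyte-like cells of brain S3, brain D3 and dura mater S3 had 862, 837 and 887 CPM. Lyve1+ macrophages had 756 to 925 CPM, Lyve1- macrophages 597 to 911, and cDC2-like cells 635 to 667. Among these classes the Ly6C hi intervals lay above the intervals of every other class.

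Ms4a4c was another gene of the monocytes. Ly6C hi monocyte-like cells had 664 CPM (636 to 692) in brain S3, 730 (703 to 757) in brain D3, 589 (566 to 612) in dura mater S3 and 618 (596 to 641) in dura mater D3. cDC2-like cells followed with 210, 302, 367 and 309 CPM, and Ly6C low monocyte-like cells with 285, 271 and 223 CPM in the first 3 libraries. Lyve1+ macrophages, which hold more Ms4a6c than cDC2-like cells do, had only 28.6 to 83.2 CPM of Ms4a4c. Ms4a8a, found at 92.1 to 131 CPM in Ly6C hi monocyte-like cells, had 56.9% of its UMIs there, against 36.3% for Ms4a4c and 23.2% for Ms4a6c. Its next highest class mean was 24.4 CPM, in Ly6C low monocyte-like cells.

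Ms4a4c differed widely among cells of 1 class. Cells were divided by how many of 12 interferon-stimulated genes (Isg15, Ifit1, Ifit2, Ifit3, Ifit3b, Irf7, Rsad2, Oasl1, Oasl2, Usp18, Ifi44 and Mx1) had a UMI. Ly6C hi monocyte-like cells with at least 5 of them had 1231, 1265, 1270 and 1324 CPM of Ms4a4c in brain S3, brain D3, dura mater S3 and dura mater D3. Cells with at most 1 had 343, 499, 430 and 462 CPM, so the same difference stood in every library, at median depths of 13881 to 20749 and 13989 to 18250 UMIs per cell. In infiltrating-like macrophages 260 cells with at least 5 had 307 CPM (294 to 321) and 426 cells with at most 1 had 22.8 (19.9 to 26.0). In Lyve1- macrophages the levels were 251, 493, 643 and 522 against 41.5, 118, 56.4 and 54.1 CPM, with deeper cells in the first set (medians of 14771 to 16916 against 10628 to 14595 UMIs).

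Other members also differed across this division. In Ly6C hi monocyte-like cells Ms4a6d was 203, 773, 299 and 709 CPM in cells with at least 5 interferon-stimulated genes and 53.1, 367, 53.9 and 279 in cells with at most 1, in the order above. It was thus higher at D3 than at S3 on both sides of the division. Ms4a6b was 820 to 967 CPM against 299 to 457, and Ms4a6c was 1587 to 1873 against 1157 to 1365. Ms4a8a was 99.5 to 167 against 81.8 to 109.5 CPM, and in brain D3 it was 99.5 against 101. The cells divided this way come from the same libraries and are not replicates.

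Ms4a7, a marker of macrophages that settle from the blood and of border macrophages, set Lyve1+ macrophages apart. Their level was 989 CPM (937 to 1042) in brain S3, 879 (840 to 920) in brain D3, 987 (956 to 1019) in dura mater S3 and 893 (872 to 914) in dura mater D3, so the intervals of the sham tissues overlapped and both D3 levels were a little lower. Infiltrating-like macrophages had 642 CPM (633 to 651). Lyve1- macrophages had 424 CPM (400 to 449) in brain S3 and 693 (672 to 714), 625 (593 to 659) and 575 (551 to 600) in the others. A Ms4a7 UMI was found in 97.2% to 100% of Lyve1+ macrophages at median depths of 8688 to 15345 UMIs, against 1.22% to 4.11% of B-like cells at 3474 to 5359.

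Microglia-like cells, the resident macrophages of the brain parenchyma, had little Ms4a7 as a class, 79.4 CPM in brain S3 and 94.4 in brain D3, and it sat in few cells. A UMI was found in 38 of 406 cells in S3 (9.36%) and 113 of 581 in D3 (19.4%), and the 5% of cells with the most held 94.6% and 73.7% of the Ms4a7 UMIs of the class. When cells with a UMI of Arg1, Thbs1, Mrc1 or Lyve1, genes of infiltrating or border macrophages, were left out, 294 and 304 cells remained, with 1.72 CPM of Ms4a7 in S3 and 27.5 in D3. In both libraries most microglia-like cells thus held no Ms4a7 UMI.

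Ms4a6d, a gene induced in activated macrophages, was close in level between infiltrating-like macrophages (554 CPM, 545 to 562) and the Ly6C hi monocyte-like cells of the same library (522 CPM, 500 to 545). The sham monocytes were far lower, with 110 CPM (98.7 to 122) in brain S3 and 110 (100 to 120) in dura mater S3, and those of dura mater D3 had 355 (338 to 372). Lyve1+ macrophages had 339, 490, 384 and 523 CPM in brain S3, brain D3, dura mater S3 and dura mater D3. Lyve1- macrophages had 150, 479, 203 and 315. Each of these classes that both days of a tissue held was higher at D3 than at S3. Ms4a4a, whose human form is a marker of macrophages, was scarce throughout, with 14.4 to 20.1 CPM in Lyve1+ macrophages and 5.87 to 14.1 in Ly6C hi monocyte-like cells.

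**Figure D3:**
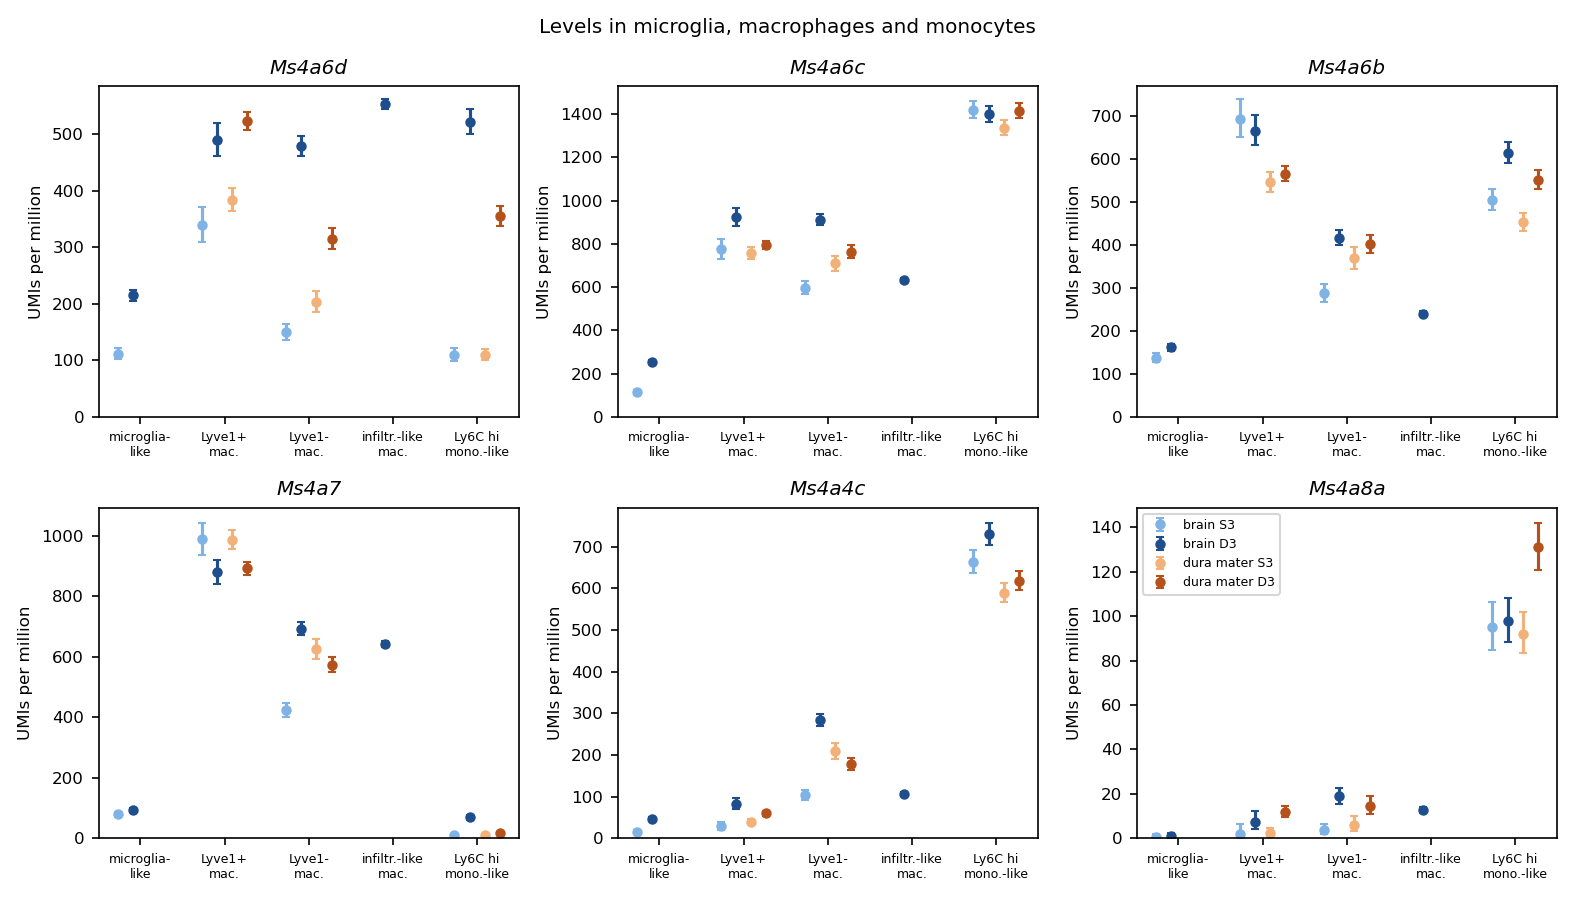
Levels of 6 members (UMIs per 1000000, vertical axes) in microglia, macrophages and Ly6C hi monocytes (horizontal axes). Each point is 1 library and bars are 95% exact Poisson intervals. Ms4a6d is higher at D3 (dark points) than at S3 (light points) in each class shown for both, Ms4a6c barely moves in monocytes, and Ms4a7 is highest in Lyve1+ macrophages.

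The comparison of D3 with S3 sets the injured library of a tissue beside its sham library in each class. With 1 library each, the injury cannot be told apart from other differences between the libraries, such as mice or depth. In brain cells of the Ly6C hi monocyte-like class, 2 of 8 members differed, beside 10.2% of the 9390 genes tested. Ms4a6d was 4.75-fold higher at D3, a log2 ratio of 2.25 (2.09 to 2.41) that 1.5% of tested genes exceeded. With each cell thinned to 2000 UMIs, the share with a Ms4a6d UMI was 18.6% in S3 and 60.2% in D3, and unthinned it was 62.3% and 94.0%. B-like cells, taken as a measure of free RNA, had 1.02% and 2.74% at their own depths. T-like and neutrophil-like cells of these libraries held more Ms4a6d and were also higher at D3, as given below. B-like cells were thus a low measure. Ms4a7 had 9.54 CPM in S3 and 69.4 in D3, a log2 ratio of 2.86 (2.32 to 3.45). Ms4a4c (0.14), Ms4a6b (0.28), Ms4a6c (-0.02) and Ms4a8a (0.04) were within 2-fold. The median log2 ratio was 0.21 over the members and -0.10 over all genes.

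Macrophage marker RNA in these monocyte-like cells moved with these values. The summed level of the infiltrating macrophage marker list in them was 5494 CPM in brain S3 and 6804 in D3, and that of the Lyve1- macrophage list 1085 and 4197. Leaving out cells with a UMI of Arg1, Gpnmb or Spp1 kept 184 cells in S3 and 73 in D3. Among these Ms4a6d was 113 and 489 CPM, a log2 ratio of 2.11, nearly as large as in the whole class. Ms4a7 was 9.48 and 16.0 CPM, a log2 ratio of 0.76 that was no longer counted, and the cells left out in D3 had 87.1 CPM. Of 266 monocyte-like cells in brain D3, 65 had UMIs of both genes, 185 of Ms4a6d alone and 1 of Ms4a7 alone. Arg1, Gpnmb and Spp1 belong to the infiltrating macrophage list. Cells with RNA of the Lyve1- macrophage list were not left out, and its part in the Ms4a6d values was not tested.

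In Ly6C hi monocyte-like cells of the dura mater, 2 of 8 members differed, beside 3.9% of all genes tested. Ms4a6d was higher by a log2 ratio of 1.69 (1.54 to 1.84), which 0.463% of tested genes exceeded. The thinned share of cells with a UMI was 16.3% in S3 and 48.3% in D3. Ms4a4a was higher by 1.27 (0.58 to 1.99), from 25 and 65 UMIs. The cells without Arg1, Gpnmb or Spp1 had 105 CPM of Ms4a6d in S3 and 354 in D3, close to the whole class. The Lyve1- macrophage list in the whole class was 1243 CPM in S3 and 2198 in D3, and the infiltrating macrophage list 6380 and 6000. The part of the Lyve1- list in the Ms4a6d values was not tested. Ms4a7 had a log2 ratio of 0.73 (0.17 to 1.30) and Ms4a8a of 0.51 (0.32 to 0.69). Ms4a6d was thus higher at D3 in monocytes of both tissues.

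In Lyve1- macrophages of the brain, 3 of 8 members differed, all higher at D3, beside 8.02% of all genes tested. Ms4a8a had a log2 ratio of 2.38 (1.45 to 3.48) from 10 and 113 UMIs, Ms4a6d of 1.68 (1.53 to 1.83) and Ms4a4c of 1.45 (1.27 to 1.63). Ms4a7 was 0.71 (0.62 to 0.80), Ms4a6c 0.61 (0.53 to 0.69) and Ms4a6b 0.54 (0.42 to 0.65), all above 0 but under 2-fold. The infiltrating macrophage marker list in these cells was 1345 CPM in S3 and 4185 in D3 and the Ly6C hi monocyte list 612 and 884, and their part in these values was not tested. With clusters in place of marker gates, Ms4a4c had a log2 ratio of 0.74 (0.53 to 0.96) and Ms4a6d of 1.16 (0.99 to 1.33), so Ms4a4c was no longer counted. In the dura mater 1 of 8 differed, beside 2.28% of all genes tested, and it was again Ms4a8a, at 1.27 (0.41 to 2.24). Ms4a6d there was 0.63 (0.48 to 0.79), while Ms4a4c was -0.24 (-0.41 to -0.07) and Ms4a7 was -0.12 (-0.22 to -0.02). The members' median log2 ratio was 0.66 in the brain and 0.17 in the dura mater, beside -0.03 and -0.05 over all genes.

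In Lyve1+ macrophages of the brain, 2 of 7 members differed, beside 4.38% of all genes tested. Ms4a4c was higher by 1.54 (1.04 to 2.07) and the lymphoid gene Ms4a4b was lower by a log2 ratio of -1.11 (-1.82 to -0.43) from 45 UMIs in S3 and 32 in D3. The T cell marker list in these macrophages moved with it, from 227 to 70.7 CPM, and its part in this value was not tested. The genes that these cells hold in quantity were within 2-fold. Ms4a6d had 0.53 (0.37 to 0.69), Ms4a6c 0.25 (0.15 to 0.36), Ms4a6b -0.06 (-0.18 to 0.06) and Ms4a7 -0.17 (-0.27 to -0.07). In the dura mater 2 of 9 differed, beside 3.05% of all genes tested. Ms4a8a was higher by 2.33 (1.34 to 3.50), from 9 UMIs in S3 and 94 in D3, and the B cell gene Ms4a1 was lower by a log2 ratio of -2.06 (-3.32 to -0.90), from 20 and 10 UMIs. The B cell marker list in them was 536 CPM in S3 and 341 in D3 and the T cell list 182 and 122, and their part in this value was not tested. Ms4a6d was 0.45 (0.36 to 0.53) and Ms4a7 -0.14 (-0.20 to -0.09).

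In microglia-like cells 2 of 6 members differed, beside 10.1% of all genes tested. Ms4a4c had 14.9 CPM in S3 and 47.0 in D3, a log2 ratio of 1.66 (1.29 to 2.04), and Ms4a6c had 112 and 253, a log2 ratio of 1.17 (1.03 to 1.31). Ms4a6d, at 111 and 215 CPM, had a log2 ratio of 0.95 (0.81 to 1.09), just under the limit. Ms4a6b and Ms4a7 had 0.23 (0.10 to 0.37) and 0.25 (0.07 to 0.43). The summed level of the infiltrating macrophage marker list in these cells was 2318 CPM in S3 and 5274 in D3, and that of the microglia list 22087 and 14464. The Ly6C hi monocyte list, which holds none of Arg1, Thbs1, Mrc1 and Lyve1, was 65.8 CPM in S3 and 167 in D3. Cells with RNA of that list were not left out, and its part in these values was not tested. In the cells without Arg1, Thbs1, Mrc1 or Lyve1 the levels were lower but the direction was the same, with 5.16 and 13.2 CPM of Ms4a4c, 57.8 and 143 of Ms4a6c and 104 and 159 of Ms4a6d. In these cells Ms4a7 had 1.72 CPM in S3 and 27.5 in D3, from 5 and 96 UMIs, and Ms4a4b 6.88 and 17.5, so both were then counted as higher at D3, with log2 ratios of 4.0 (2.73 to 5.66) and 1.35 (0.60 to 2.15).

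**Figure D4:**
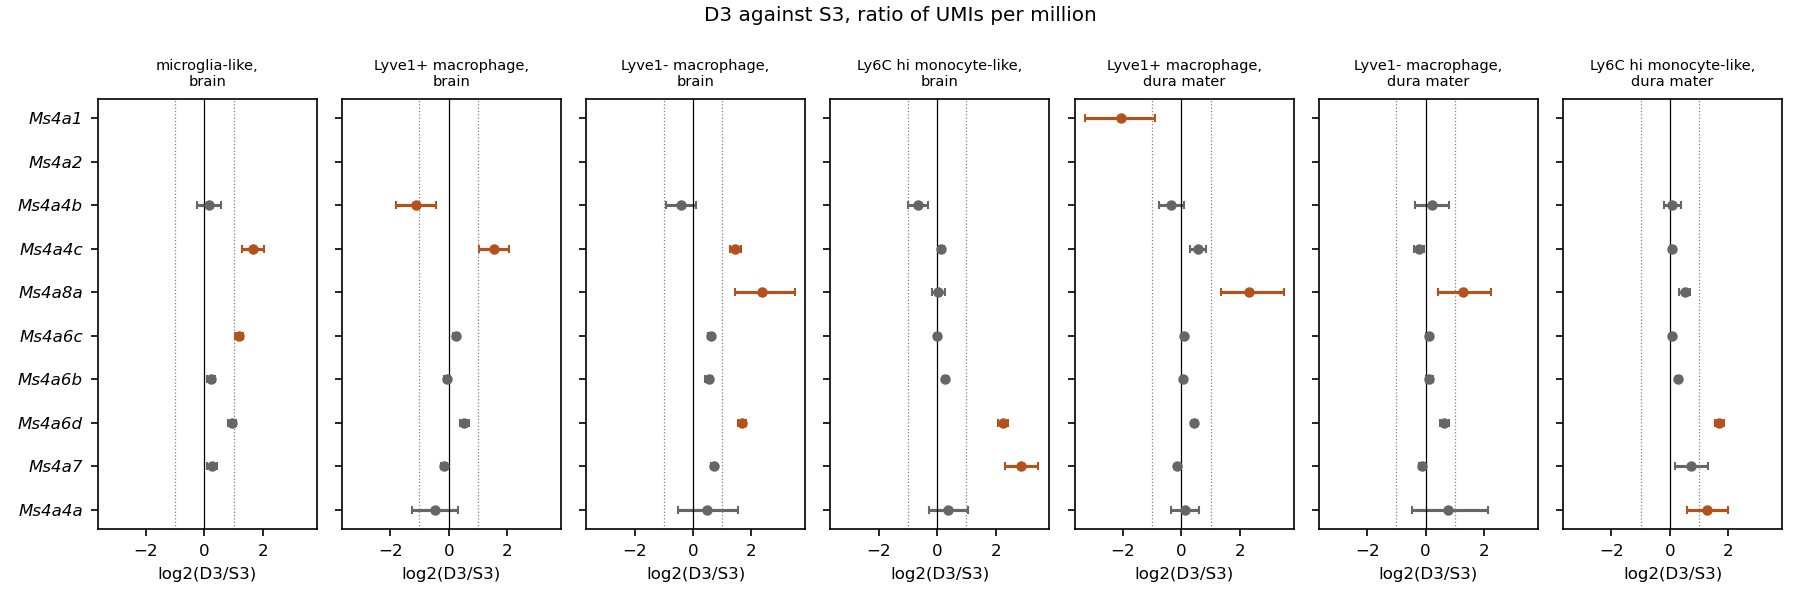
Log2 ratio of D3 to S3 levels (horizontal axes) for each member (rows) in 7 classes, with 95% exact intervals. Orange points are at least 2-fold apart with an interval off 0, dotted lines mark 2-fold, and members with too few UMIs have no point. Ms4a6d lies to the right of 0 in every panel, past 2-fold in monocytes of both tissues and in Lyve1- macrophages of the brain.

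Infiltrating-like macrophages, 1162 cells in brain D3 and at most 6 in any other library, were set against the other classes of the same library. Against Ly6C hi monocyte-like cells 7 of 8 members differed, beside 21.3% of all genes tested, and the members moved in opposite directions. Ms4a7 was higher by a log2 ratio of 3.21 (3.04 to 3.39). Ms4a8a (-2.95, -3.16 to -2.74), Ms4a4c (-2.77, -2.84 to -2.70), Ms4a4b (-2.10), Ms4a6b (-1.36), Ms4a4a (-1.26) and Ms4a6c (-1.14) were lower. Ms4a6d differed by 0.08 (0.02 to 0.15). The macrophages thus held 9.26 times the Ms4a7 of the monocyte-like cells and less of the other members, Ms4a6d excepted.

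Against microglia-like cells of brain D3, 7 of 8 members differed, beside 25.9% of all genes tested. Ms4a4a was higher in the infiltrating-like macrophages by a log2 ratio of 3.59 (2.20 to 5.48), Ms4a8a by 3.38 (2.53 to 4.40) and Ms4a7 by 2.77 (2.67 to 2.87). Ms4a6d (1.36, 1.30 to 1.43), Ms4a6c (1.32, 1.26 to 1.39) and Ms4a4c (1.19, 1.04 to 1.34) were also higher, Ms4a6b had 0.57 (0.49 to 0.65), and Ms4a4b was lower (-1.17, -1.47 to -0.87). Ms4a4a rested on 4 UMIs in microglia-like cells and Ms4a8a on 11.

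Myeloid members were also measured in T-like and neutrophil-like cells of the injured brain. In T-like cells 4 of 6 members differed, beside 7.29% of all genes tested, with Ms4a7 at 15.3 CPM in S3 and 188 in D3 (log2 ratio 3.62, 3.25 to 4.0), Ms4a6d higher by 3.29 (2.88 to 3.71), Ms4a4c by 2.38 (2.0 to 2.75) and Ms4a6c by 2.08 (1.78 to 2.37). The T cell members Ms4a4b and Ms4a6b had -0.12 (-0.23 to -0.02) and -0.00 (-0.13 to 0.12). The summed level of the Lyve1- macrophage marker list in T-like cells moved with this, from 1509 to 3759 CPM, and that of the infiltrating macrophage list from 256 to 1290, with 10 of its 10 markers present in both. Among T-like cells without a UMI of C1qa, C1qb or C1qc (335 and 44 cells), Ms4a7 was 0.389 CPM in S3 and 7.72 in D3, from 1 and 2 UMIs, whereas cells with one had 28.9 and 240. Among the same cells without C1q, Ms4a6d was 5.44 CPM (2.97 to 9.13) in S3 and 7.72 (0.934 to 27.9) in D3, Ms4a4c 20.6 (15.4 to 26.9) and 27.0 (10.9 to 55.6), and Ms4a6c 21.4 (16.1 to 27.8) and 30.9 (13.3 to 60.8). All 4 pairs of intervals overlapped, so no difference was detectable in them at this depth.

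In neutrophil-like cells of the brain 4 of 5 members differed, beside 16.6% of all genes tested. Ms4a6d was higher by a log2 ratio of 2.93 (2.29 to 3.63), Ms4a4c by 2.35 (1.59 to 3.2), Ms4a6c by 1.83 (1.43 to 2.24) and Ms4a7 by 1.29 (0.86 to 1.73). The levels stayed low, with 105 CPM of Ms4a6d and 94.8 of Ms4a7 in D3. The Lyve1- macrophage list in the same cells was 1392 CPM in S3 and 3619 in D3, and its part in these values was not tested.

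Genes of described partners of the family had other patterns. Vsig4, a complement receptor reported to form a complex with MS4A6D, was near 0 outside Lyve1+ macrophages, where it had 0 CPM in brain S3, 6.51 in brain D3, 7.41 in dura mater S3 and 53.1 in dura mater D3. Lyve1- macrophages held no Vsig4 UMI in any library, although they had 150 to 479 CPM of Ms4a6d. Trem2, a lipid receptor whose soluble form is tied genetically to human MS4A4A, was highest in microglia-like cells (2187 CPM in S3 and 1991 in D3), where Ms4a4a was near 0. It had 1508 CPM in infiltrating-like macrophages and 307 to 722 in Lyve1+ macrophages.

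The genes with the pattern most like each member were found by the correlation of log2(CPM + 1) over 53 groups of class and library, among 10539 genes outside the family and the marker lists. The groups share libraries and differ in depth, so these values are descriptions. Ms4a1 was most like Iglc3 (r = 0.94) and Ly6d (0.92), Ms4a2 like Slc6a4 (0.97) and Mrgprb2 (0.97), and Ms4a4b like Ccl5 (0.93) and Klra7 (0.88). Ms4a7 was most like C3ar1 (0.93) and Stab1 (0.92), Ms4a6d like Fcgr1 (0.94) and Cd68 (0.93), and Ms4a6c like Ccl9 (0.94) and Ifi207 (0.94). Ms4a4c was most like Pitpna (0.86) and Irf5 (0.83), Ms4a6b like Npc2 (0.82) and Vps13c (0.81), Ms4a8a like Adora2b (0.87) and Nrg1 (0.87), and Ms4a4a like Msr1 (0.85) and Tlr7 (0.81). Among the members the closest pairs were Ms4a6c and Ms4a6d (0.90), Ms4a6c and Ms4a8a (0.83), and Ms4a4c and Ms4a6c (0.82). The pair with the most similar promoters, Ms4a4b and Ms4a4c, was not among them.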

How the data were processed

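The authors aligned the reads to mm10 with Cell Ranger 3.1.0 and normalised them in Seurat 3.1.0, per the submitters' processing notes. Each deposited value is a natural log, taken of 1 plus a gene's UMIs per 10000 UMIs of the cell. They were turned back into UMIs, all whole within 1e-06. Genes that a library does not list counted as 0. Kept cells had 1000 to 6000 genes and a mitochondrial share of at most 7%. The highest doublet scores (Scrublet in scanpy 1.11.5) were removed at 0.8% per 1000 barcodes, since the automatic caller marked too few. A class needed at least 3 markers and a score, the mean of its scaled marker levels, of at least 0.5. Each cell took the class with the highest score, and no lead over the next class was required. A cell that scored above 1.0 for a list of another lineage was set aside as mixed. UMIs were summed by class and library, and ratios have exact conditional intervals with a floor of 3 UMIs. With 1 library per group no test was made. Members, lists and rules were chosen with earlier results of these data known. All 10 members and their other family genes, partners and 2 most alike genes were named. Promoters were searched on both strands for 17 motifs. Besides those printed in the results these were TATAAA, the TATA box, which was found in Ms4a4b, and TGCTGA, bound by MAF proteins, which was found in Ms4a4a and Ms4a8a. No member entry held the E-box CACCTG, the MITF site written as CACGTGA, the RUNX site written as TGTGGTT, the TCF site written as CTTTGAA, the C/EBP site TTGCGCAA, the T-box site AGGTGTGA, the STAT site TTCNNNGAA, or the MEF2 and ETS-IRF motifs, the last of which can overlap GGAAGT. The steps were tested on simulated data. Python 3.11.15, numpy 2.4.6, scipy 1.17.1, pandas 2.3.3, Biopython 1.88 and matplotlib 3.10.9 were used.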

Additional observations from a re-analysis of the deposited data

Results flagged for a closer look

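For 5 combinations of member and class, D3 and S3 differed in opposite directions in brain and dura mater, with both counting intervals off 0. The difference between the tissues was not tested, since each group has 1 library. In Lyve1- macrophages Ms4a4c had a log2 ratio of D3 to S3 of 1.45 (1.27 to 1.63) in the brain and -0.24 (-0.41 to -0.07) in the dura mater. Ms4a7 in the same class had 0.71 (0.62 to 0.80) and -0.12 (-0.22 to -0.02). In cDC2-like cells Ms4a4c had 0.52 (0.39 to 0.66) in the brain, from 210 to 302 CPM, and -0.25 (-0.37 to -0.12) in the dura mater, from 367 to 309 CPM. In T-like cells Ms4a4b had -0.12 (-0.23 to -0.02) and 0.28 (0.11 to 0.44). In B-like cells Ms4a1 had -0.27 (-0.45 to -0.09) in the brain and 0.39 (0.31 to 0.48) in the dura mater. Of these 10 ratios only that of Ms4a4c in Lyve1- macrophages of the brain passed 2-fold.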

How the results depend on the processing

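The class with the highest mean level was the same for 10 of 10 members under every alternative tried except the removal of ribosomal and mitochondrial UMIs, where it was the same for 9 and T-like cells took the lead for Ms4a6b. Of the 21 differences counted between D3 and S3 in the 7 classes plotted and between infiltrating-like macrophages and monocytes, 21 were kept without the filter on cells, with doublets kept, with stricter gates and without ribosomal and mitochondrial genes, 19 with cells weighted equally, 17 with at least 100 UMIs, 15 with Leiden clusters as classes and 12 with cells thinned to 2000 UMIs. In microglia-like cells (2 members) the count was 4 without the filter, 4 with doublets kept, 1 thinned, 1 with equal weights and 4 without cells with Arg1, Thbs1, Mrc1 or Lyve1, an alternative chosen after seeing the data. In Lyve1+ macrophages of the brain (2) it was 4 without the filter, 0 thinned, 0 with clusters, 1 with equal weights and 1 with at least 100 UMIs, and in the dura mater (2) 0 thinned and 1 with at least 100 UMIs. In Lyve1- macrophages of the dura mater (1) it was 0 thinned and 0 with at least 100 UMIs, and with clusters Ms4a8a was lost (0.84, -0.06 to 1.82) and Ms4a1 took its place. In Lyve1- macrophages of the brain (3), Ms4a4c was lost with clusters and Ms4a8a when thinned. In Ly6C hi monocyte-like cells from brain (2) it was 1 with clusters and 1 without cells with Arg1, Gpnmb or Spp1, also chosen after seeing the data, and in the dura mater (2) 1 thinned and 1 with at least 100 UMIs. Between infiltrating-like macrophages and monocytes (7), Ms4a6c was lost with clusters and Ms4a4a when thinned. The ratio of Ms4a4b in Lyve1+ macrophages of the brain reversed with clusters, to 2.33 (-0.63 to 7.83). The cause was not tested, except that thinning and the higher minimum leave fewer UMIs. No paired analysis was possible because each group has 1 library. Members under about 20 CPM, Ms4a4a above all, rest on few UMIs, and classes with under 50 cells were left out.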

Other observations

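Of 11 other family genes looked for, 5 were listed, and Ms4a3 and Ms4a14 had more than 100 UMIs. Ms4a3, a gene of committed granulocyte and monocyte progenitors, had 829 CPM (789 to 871) in granulocyte precursor-like cells of dura mater S3. Immature neutrophil-like cells had 18.3 CPM of it in brain S3, 92.2 in brain D3, 96.5 in dura mater S3 and 85.6 in dura mater D3, so the sham brain was the low library. However, cells set aside as mixed held 77.7% of the Ms4a3 UMIs in brain S3. They held 16.6% in brain D3, 6.68% in dura mater S3 and 13.6% in dura mater D3. Ms4a14 had 36.5, 29.3, 46.3 and 50.8 CPM in Lyve1+ macrophages in the same order, and 10.6 in infiltrating-like macrophages.

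Tmem176a and Tmem176b encode relatives of the family from outside the cluster. Tmem176a was about as high in gamma-delta T-like cells (999 CPM in brain S3, 1021 in dura mater S3 and 1093 in dura mater D3) as in Lyve1- macrophages of dura mater S3 (994 CPM). Tmem176b had 1317, 714, 1343 and 1172 CPM in Lyve1- macrophages of brain S3, brain D3, dura mater S3 and dura mater D3 and 92.7 in infiltrating-like macrophages, which had 642 CPM of Ms4a7. Within infiltrating-like macrophages, 494 of 1162 cells had UMIs of both Ms4a7 and Ms4a4c, 624 of Ms4a7 alone and 17 of Ms4a4c alone.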
